A study of Xenopus laevis with 6 samples.

Results

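The genes described here are the axon and cell guidance genes on the array: Eph receptors and ephrins, semaphorins, plexins and neuropilins, netrins with their receptors, slits and robos, the repulsive guidance molecule rgma, and the rnd GTPases. They were chosen by symbol, as every platform gene symbol whose name belongs to one of these families (the flrt family was included in the rule but no probe set with 1 symbol carried its name). The rule found 34 symbols on 44 probe sets, of 7531 symbols in all, and each symbol was represented by its probe set with the highest mean signal. A RefSeq table of the frog's genes holds 112 symbols of these families, and 5992 probe sets of the array carry no symbol, so more guidance genes may be on the array than are named here. The ending .L or .S tells apart the copies of a gene that Xenopus laevis kept from its 2 parental genomes, and a probe set named for one copy may also detect the other.

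The samples were explants of the animal pole of Xenopus laevis embryos, the cap of the blastula that makes epidermis when cultured on its own. Explants were isolated at stage 8 and kept in culture until siblings were at stage 20. The untreated group held 4 samples, pooled explants in the wording of the series' design, and the NICD group held 2 samples from embryos injected with NICD, the intracellular part of the Notch receptor, which acts in the nucleus as a constantly active form. All samples share the tissue, the stages and 1 array type. No sample carries the label of a control injection, and NICD and the injection itself therefore cannot be told apart. The labels give neither the form nor the dose of the injected NICD. Whether replicates were independent experiments is also not stated, and the p-values below then measure only how these samples vary, which may be technical.

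Guidance genes were named for steering growing axons, and many of them act well before axons form. Eph receptors are receptor tyrosine kinases whose ligands, the ephrins, sit on neighbouring cells, and the pair is known in frog embryos for keeping cell populations apart at tissue boundaries. Semaphorins signal through plexins, netrins through DCC, neogenin and UNC5 proteins, slits through robo receptors, and most of these routes end in small GTPases that reshape the actin cytoskeleton and loosen or strengthen adhesion.

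Of the 34 guidance genes, 21 had a signal above the 40th percentile of the array in at least 2 arrays and were tested. Of these 21, 8 rose and 1 fell in NICD explants at an adjusted p under 0.05 in limma, and 12 did not pass. Over all 10368 probe sets tested, 31.6% passed, 15.3% higher and 16.2% lower. The increases were rgma.L, epha2.L, rnd1.S, epha4.L, plxnb2.S, ephb4.L, efna4.L and plxna1.L, and the decrease was sema6d.L. In 9 of the 21, both NICD arrays lay above all 4 untreated arrays, and in 2 both lay below, against 26.7% and 24.2% of all tested probe sets. Their median log2 change was 0.47, with 0.45 and 0.48 on the 2 scan days, beside 0.05 over all tested probe sets. The plot of changes shows the 21 genes in order of their change, from rgma.L to sema6d.L.

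The count covers only the genes that passed the filter on low signals. Among them epha4.L and epha8.L were above it in the NICD arrays alone, and sema6d.L and slit1.S in untreated arrays alone, so their passing depended on the group in which they were high. With no filter, 8 of the 34 rose and 1 fell, beside 10.2% and 10.6% of all 15491 probe sets, and the median was 0.23 beside 0.04. All changes are differences of log2(signal + 32), NICD minus untreated, so that the change of weakly detected genes is understated. In tissue samples such as these, fewer cells of a type and less RNA per cell cannot be told apart.

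**Figure D1:**
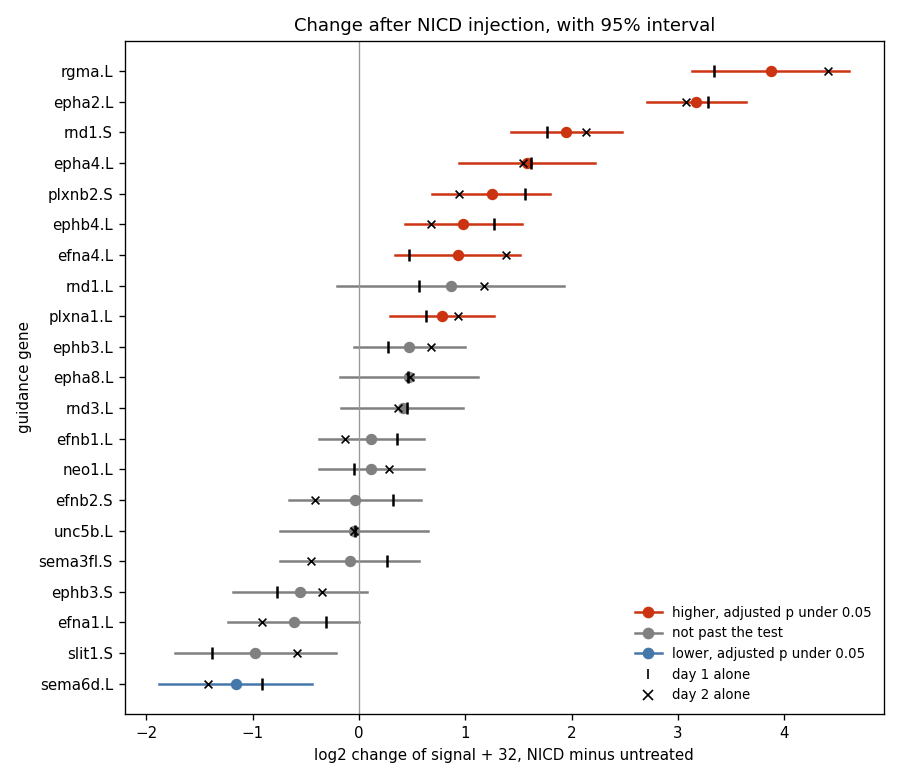
Log2 change of signal + 32 (x axis, NICD minus untreated, 4 and 2 arrays) for the 21 tested guidance genes (y axis). Points and bars are the limma estimate and its 95% interval, ticks and crosses the change within day 1 and day 2; rgma.L (3.87) and epha2.L (3.17) stand at the top and sema6d.L (-1.16) at the bottom.

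Among the series' general measures, median signals ran from 155.6 to 178.9, and the trimmed mean was 500.07 to 500.09, so arrays had been scaled alike. For gapdh, a control of RNA quality, 3' over 5' signal was 2.70 to 3.54 in untreated arrays, 4.21 in NICD 1 and 2.98 in NICD 2. By their scan dates, arrays fell on 2 days, each with 2 untreated arrays and 1 NICD array (untreated 1, untreated 2 and NICD 1 on day 1). Both NICD arrays went through module 4 of the fluidics station and no untreated array did, which means that the module and NICD cannot be told apart. With the day as a block, 9 of the 21 guidance genes were higher and 2 lower, beside 20.4% and 19.8% of all tested probe sets. The added genes were rnd1.L and slit1.S. The number of arrays limits the precision of every value.

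Of the 6 Eph receptors measured, all were tested, 3 rose and none fell in limma (also 3 higher and 0 lower at an unadjusted p under 0.05, beside 21.8% and 20.6% of all tested probe sets), with a median log2 change of 0.72. The receptor epha2.L, which binds ephrins of the A class and is common in epithelia, had signals of 233.4, 264.7, 263.0 and 292.3 in untreated 1 to 4 and of 2685.5 and 2573.2 in NICD 1 and 2. The 4 untreated arrays lay close together, and both NICD arrays were far above them and close to each other. Means were 263 ± 24.1 (SD, n = 4) without and 2630 ± 79.4 (SD, n = 2) with NICD, and the log2 change was 3.17 ± 0.21 (SE) with an adjusted p of 8.46e-06 in limma. Within day 1 it was 3.28 and within day 2 it was 3.07.

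The receptor epha4.L binds ephrins of both classes and is known from the segments of the hindbrain and from neural crest. Its signals were 28.1, 9.1, 7.7 and 30.2 in the untreated arrays, all below the 40th percentile, and 120.9 and 112.5 in the NICD arrays. Even the lower NICD array lay above the highest untreated one. The log2 change was 1.58 ± 0.29 (SE; adjusted p = 0.00239 in limma), but its size rests on the pseudocount, since it was 2.81 with a pseudocount of 1 and 1.00 with 80. A second epha4.L probe set, at 11.2 to 13.8 in untreated and at 46.4 and 46.3 in NICD arrays, was too low to be tested, and its groups did not overlap either.

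The receptor ephb4.L, the main partner of ephrin-B2 in blood vessels of vertebrates, had 554.8, 554.6, 470.1 and 639.5 in the untreated arrays and 1379.6 and 901.5 in NICD 1 and 2. The groups did not overlap, and NICD 1 was the higher NICD array. Its log2 change of 0.98 ± 0.25 (SE) had an adjusted p of 0.0131 in limma, and 0.12 without NICD 1. It was 1.27 within day 1 and 0.68 within day 2.

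The other Eph receptors did not pass. For epha8.L the signal was 38.5 to 106.1 in untreated arrays and 119.6 and 105.8 in NICD arrays, which overlap by a narrow margin, and the log2 change was 0.47 (95% interval -0.18 to 1.12). The copies of ephb3, a receptor for B class ephrins, had changes of opposite sign. The ephb3.L signal was 345.1, 328.2, 273.3 and 223.7 in untreated 1 to 4 and 412.1 and 414.3 in NICD 1 and 2, a log2 change of 0.47 (-0.05 to 1.00). The ephb3.S signal was 326.1, 375.8, 242.2 and 185.0 in untreated and 192.7 and 159.2 in NICD arrays, a log2 change of -0.56 (-1.19 to 0.07). Both copies thus missed the threshold, one above all untreated arrays and the other overlapping them. The ratio of the copies within an array separated the groups. As log2 of ephb3.L over ephb3.S (each signal plus 32) it lay between -0.18 and 0.24 in the untreated arrays and was 0.98 and 1.22 in the NICD arrays, a difference of 1.03. The exact 2-sided permutation test over the 6 arrays gave p = 0.0667 (0.133 after adjustment over the 4 ratios compared in this way). Its 15 arrangements allow no smaller value, so this test cannot pass 0.05 and cannot decide whether the ratios differ.

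**Figure D2:**
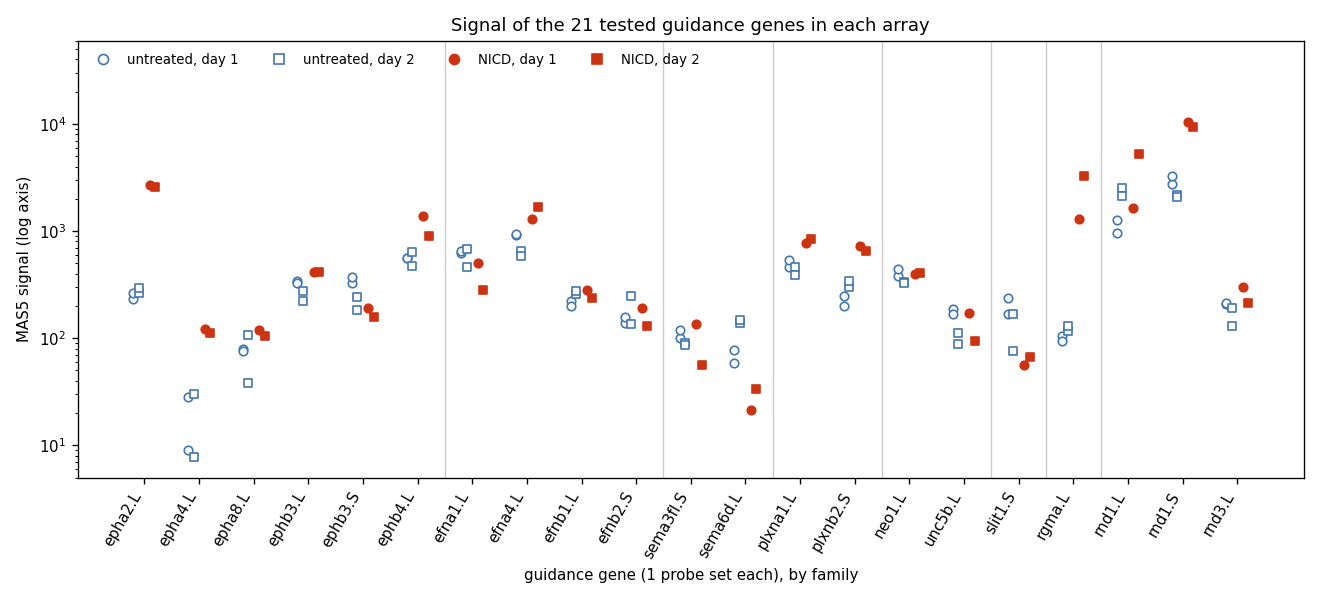
MAS5 signal (y axis, log scale) of the 21 tested guidance genes (x axis, families parted by lines) in each array, open blue for untreated and filled red for NICD, circles for day 1 and squares for day 2. The epha2.L, rgma.L and rnd1.S points of the 2 NICD arrays stand clear of all 4 untreated points, whereas those of rnd1.L and most ephrins overlap; signals of different probe sets are not comparable as levels.

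Of the 6 ephrins, 4 were tested, 1 rose and none fell in limma (beside 15.3% and 16.2% of all tested probe sets), and the median was 0.03. At an unadjusted p under 0.05 in limma 1 was higher and 1 lower (efna1.L), beside 21.8% and 20.6% of all tested probe sets. The ligand efna4.L, tethered to the membrane by a lipid anchor as all A class ephrins are, had 909.8, 940.7, 657.4 and 583.4 in untreated 1 to 4 and 1295.9 and 1667.5 in NICD 1 and 2. Its untreated signals were lower on day 2 than on day 1, and both NICD arrays were above all of them. The log2 change was 0.93 ± 0.26 (SE; adjusted p = 0.0220 in limma), with 0.47 within day 1 and 1.38 within day 2. The call was lost without untreated 4 (adjusted p = 0.0504 in limma) and without NICD 2 (0.174).

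Another A class ligand, efna1.L, ran from 465.1 to 675.3 in untreated arrays and had 506.0 and 282.6 in NICD 1 and 2. NICD 1 lay within the untreated range and NICD 2 below it, and the log2 change of -0.61 did not pass after adjustment (adjusted p = 0.117 in limma). It was -1.0 without NICD 1 (adjusted p = 0.0433 in limma) and -0.23 without NICD 2 (0.658). The B class ephrins span the membrane and can signal back into the cell that carries them. Neither tested one passed, efnb1.L with a log2 change of 0.11 (-0.38 to 0.61) and efnb2.S with -0.04 (-0.66 to 0.58), and in both the NICD arrays overlapped the untreated arrays. The remaining ephrins, efna3.L at 25 to 108.9 and efnb3.L at 26.6 to 117.1 over all arrays, were too low to be tested.

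Both plexins tested rose, beside 15.3% of all tested probe sets. The signal of plxnb2.S, a receptor for class 4 semaphorins, was 201.3, 247.3, 302.5 and 344.7 in untreated 1 to 4 and 719.1 and 648.7 in NICD 1 and 2. Every NICD array was above every untreated one. The log2 change was 1.25 ± 0.25 (SE; adjusted p = 0.00410 in limma), with 1.56 and 0.94 on the 2 days. The signal of plxna1.L, which serves secreted class 3 semaphorins together with neuropilins and also binds class 6 semaphorins, was 457.7, 531.1, 461.9 and 389.7 in untreated arrays and 778.3 and 836.3 in NICD arrays. The groups did not overlap here either, and the log2 change was 0.78 ± 0.22 (SE; adjusted p = 0.0217 in limma). That call was lost without untreated 4 (adjusted p = 0.0523 in limma), without NICD 1 (0.0670) and without NICD 2 (0.124), with changes of 0.71, 0.83 and 0.73. The co-receptor nrp1.L was below the filter in all arrays, with 19.6 to 33.0 in untreated and 61.7 and 42.6 in NICD arrays.

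Of the 5 semaphorins, the ligands of these receptors, 2 could be tested and 1 fell, beside 16.2% of all tested probe sets. The membrane-bound sema6d.L had 77.3, 59.1, 139.5 and 147.7 in untreated 1 to 4 and 21.2 and 33.8 in NICD 1 and 2. Its untreated signals were higher on day 2 than on day 1, and both NICD arrays lay below all of them. The log2 change was -1.16 ± 0.32 (SE; adjusted p = 0.0208 in limma), -0.91 within day 1 and -1.42 within day 2. The call was lost without untreated 4 (adjusted p = 0.0519 in limma), without NICD 1 (0.121) and without NICD 2 (0.0727), with changes of -1.01, -1.01 and -1.31. The size rests on the pseudocount here too, since it was -1.84 with a pseudocount of 1 and -0.76 with 80. The other tested semaphorin, sema3fl.S, had a log2 change of -0.09 (-0.74 to 0.56), its NICD arrays lying on either side of the untreated range at 137.0 and 56.3. The others, sema3a.L, sema3c.S and sema4c.L, reached at most 84.8 in any array and were not tested.

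The largest increase among the guidance genes was that of rgma.L, a lipid-anchored ligand of neogenin that is also a co-receptor for BMPs. Its signal was 103.9, 94.3, 116.4 and 130.3 in untreated 1 to 4 and 1291.3 and 3261.5 in NICD 1 and 2. The untreated arrays sat near the filter and the NICD arrays far above it, with NICD 2 the higher of the pair. The mean was 111 ± 15.6 (SD, n = 4) against 2280 ± 1390 (SD, n = 2), and the log2 change was 3.87 ± 0.33 (SE; adjusted p = 3.42e-05 in limma), 3.34 within day 1 and 4.41 within day 2. Over the 17 alternative settings its log2 change ran from 3.21 to 4.53 and passed in each.

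The receptor of rgma and of netrins, neogenin (neo1.L), did not pass. Its signal was 324.5 to 443.9 in untreated arrays and 393.0 and 407.6 in NICD arrays, inside the untreated range, with a log2 change of 0.11 (-0.38 to 0.61). A second neo1.L probe set had a change of 0.22, which did not pass either. The netrin receptor unc5b.L had a log2 change of -0.05 (-0.74 to 0.65), and its NICD arrays lay within the untreated range of 88.8 to 185.6. The netrins ntn1.L and ntn5.L and both copies of the receptor dcc, dcc.L and dcc.S, were below the filter in all 6 arrays, with no signal above 93.0.

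Of the 4 slits and robos measured, only slit1.S, a secreted repellent, was tested. Its signal was 234.9, 166.4, 76.2 and 169.5 in untreated 1 to 4 and 56.7 and 67.1 in NICD 1 and 2. Both NICD arrays were below all untreated ones, and the log2 change of -0.98 (-1.73 to -0.22) missed the threshold with an adjusted p of 0.0503 in limma. It passed in 4 of 14 alternatives, among them the day as a block (adjusted p = 0.0307 in limma) and without untreated 3 (0.00687). With any other array left out it did not pass (adjusted p = 0.0897 to 0.188 in limma). A second slit1.S probe set, with 170.5, 145.0, 58.1 and 55.7 in untreated and 30.8 and 4.6 in NICD arrays, fell by 1.44 on the log2 scale (adjusted p = 0.0215 in limma). Both of these probe sets have an ID suffix marking probes shared with other transcripts. The one slit1.S probe set without the suffix had 6.2 to 10.6 in all arrays and was not tested. The ligand slit2.S and the receptors robo1.L and robo3.S were too low to be tested.

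The rnd genes encode unusual small GTPases that stay bound to GTP, bind plexins and weaken cell adhesion, for which rnd1 is known in Xenopus embryos. Of the 3 measured, all tested, rnd1.S rose, beside 15.3% of all tested probe sets. Its signal was 2771.3, 3261.2, 2147.6 and 2058.6 in untreated 1 to 4 and 10364.7 and 9319.0 in NICD 1 and 2. The NICD arrays were well above the untreated ones on both days. The mean was 2560 ± 565 (SD, n = 4) against 9840 ± 739 (SD, n = 2), a log2 change of 1.95 ± 0.23 (SE; adjusted p = 0.000207 in limma).

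The probe sets of rnd1.L differed from each other. The one with the higher mean had 960.6, 1255.8, 2539.7 and 2109.8 in untreated 1 to 4 and 1632.4 and 5239.1 in NICD 1 and 2. On each day the NICD array was above its untreated arrays, but NICD 1 lay among the untreated arrays of both days together. The log2 change of 0.86 (-0.21 to 1.93) did not pass (adjusted p = 0.201 in limma), and with the day as a block it did (0.00934), being 0.56 within day 1 and 1.17 within day 2. It was 0.03 without NICD 2, 1.69 without NICD 1 and 1.81 with all probe sets of a symbol averaged. The other rnd1.L probe set had 425.7, 539.5, 693.4 and 1198.9 in untreated and 3002.7 and 7153.6 in NICD arrays, with no overlap. Its log2 change was 2.75 ± 0.43 (SE; adjusted p = 0.000974 in limma), 2.57 within day 1 and 2.93 within day 2. The log2 ratio of the 2 rnd1.L probe sets lay between -1.83 and -0.80 in untreated arrays and was 0.87 and 0.45 in the NICD arrays, a difference of 1.89 (exact permutation p = 0.0667, the smallest that test can give). The ratios of the rnd1.L probe sets to rnd1.S overlapped between groups over both days, with differences of -1.09 for the used and 0.79 for the other probe set (exact permutation p = 0.267 and 0.400, with no account of the day). Within each day the NICD array lay outside its untreated arrays, by -1.22 and -0.96 from their mean for the used probe set and by 0.79 and 0.8 for the other. With 1 NICD and 2 untreated arrays on each day this cannot decide whether the ratios differ, and it was not tested. The relative rnd3.L had 130 to 214.6 in untreated arrays and 301.9 and 213.9 in NICD arrays, and its log2 change of 0.41 (-0.17 to 0.98) did not pass.

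**Figure D3:**
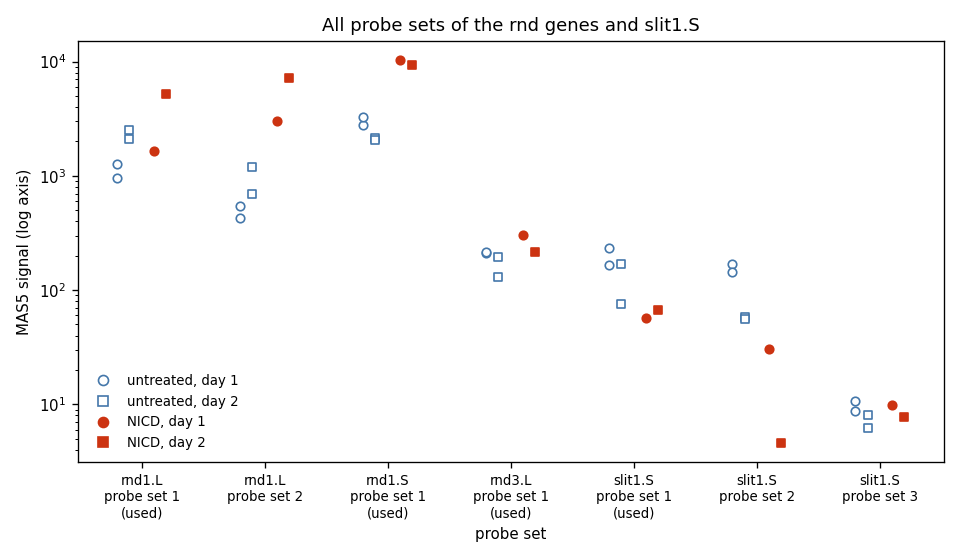
MAS5 signal (y axis, log scale) of every probe set of the rnd genes and slit1.S (x axis, the one that represents the gene marked as used) in each array, open blue for untreated, filled red for NICD, circles for day 1 and squares for day 2. In the used rnd1.L probe set NICD 1 (1632.4) lies among the untreated arrays, whereas in the other both NICD arrays lie above them.

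The 13 guidance genes that were not tested were efna3.L, efnb3.L, nrp1.L, sema3a.L, sema3c.S, sema4c.L, ntn1.L, ntn5.L, dcc.L, dcc.S, slit2.S, robo1.L and robo3.S. Without the filter their log2 changes ran from -0.68 (ntn5.L) to 0.70 (robo3.S), and none passed in limma, with ntn5.L nearest to the threshold (adjusted p = 0.0717). At an unadjusted p under 0.05 in limma, 3 of the 13 were higher and 1 lower, beside 17.4% and 15.5% of all probe sets without the filter. Those shares include the 10368 probe sets above the filter, of which 21.8% and 20.6% were called in the main fit. They are therefore no background for the 13, and the shares among untested probe sets alone were not computed. In dcc.S and nrp1.L both NICD arrays were above all untreated arrays, and in ntn5.L both were below, at 8.1 and 8.1 against 14.4 to 48.4. Over all tested probe sets the shares were 26.7% above and 24.2% below, and none was computed for untested probe sets. The probe sets of dcc.S and of robo3.S disagreed in sign. The dcc.S probe set used had 40, 51.1, 31.7 and 28.6 in untreated and 58.0 and 67.1 in NICD arrays, while the other had 12.3, 27.3, 36.6 and 22.8 against 23.8 and 4.9. For robo3.S, a receptor of the robo family, the used one had 33.3, 40.6, 41.0 and 88.3 against 77.4 and 122.8, and the other 39.0, 25.6, 19.9 and 31.8 against 20.8 and 13.2. In the second probe set of both genes NICD 1 lay within the untreated range and NICD 2 below it.

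The cytoplasmic proteins that carry guidance signals were described with a list of 58 gene names. It matched 41 symbols, of which 29 were tested, 11 rose and 3 fell (37.9% and 10.3%, beside 15.3% and 16.2% of all tested probe sets), with a median log2 change of 0.23. With no filter 8 of the 41 rose and 2 fell, beside 10.2% and 10.6% of all probe sets. Of the 29, 6 rose without untreated 3 (14.9% of all tested probe sets), 6 without untreated 4 (13.0%) and 5 without NICD 1 (11.2%). Without NICD 2 the counts in limma were 2 higher and 0 lower, beside 7.29% and 8.94% of all, and 9 and 2 at an unadjusted p under 0.05, beside 15.5% and 15.2%. The increases were led by kalrn.L, an exchange factor for Rac, from 654 to 1600 (log2 change 1.30), and enah.L, an actin polymerase of the Ena/VASP family, from 236 to 624 (1.28). Next came the kinase pak1.S, which acts downstream of Rac and Cdc42, from 216 to 567 (1.23), and dpysl2.L, a collapsin response mediator in semaphorin signalling, from 141 to 318 (1.02). The exchange factor vav2.S, which binds Eph receptors, went from 171 to 375 (1.00), but a vav2.S probe set with no shared-probe suffix had a log2 change of -0.08, which did not pass. All of these are group means of signals, and the adjusted p in limma was 0.0334 or lower for each. In the other direction chn1.L, a Rac inhibitor that acts in EphA4 signalling in mice, fell from 449 to 135 (log2 change -1.46). The adaptor bcar1.L fell from 228 to 88.0 (-1.10) and elmo2.S, part of an exchange complex for Rac, from 211 to 109 (-0.81), with adjusted p values in limma of 0.0358 or lower. For bcar1.L only untreated arrays were above the filter, so its passing depended on the group in which it was high. The call of elmo2.S was lost in 7 of 16 alternatives, among them the leaving out of any untreated array (adjusted p in limma 0.0528 to 0.0824) and of NICD 2 (-0.46, 0.313). That of dpysl2.L was lost in 5 of 16, among them without untreated 3 (adjusted p = 0.0654 in limma), untreated 4 (0.0733) and NICD 1 (0.245), where its change was 0.68. Without NICD 2 the calls of kalrn.L, enah.L, pak1.S, vav2.S, chn1.L and bcar1.L were lost too, with changes of 1.10, 0.91, 0.88, 0.71, -1.43 and -1.01. The GTPases rac1.L and cdc42.L, named here after their values were seen, did not pass, with log2 changes of 0.23 and -0.33.

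Markers of several cell types moved between the same groups, and their part in the changes of guidance genes was not tested. In these lists, as in those above, the .L and .S copies were counted as separate genes, and a probe set of either copy may detect the other. For every list below, the shares of all tested probe sets called were 15.3% higher and 16.2% lower. At an unadjusted p under 0.05 in limma they were 21.8% and 20.6%. Among neural progenitor genes 10 of the 13 tested were called higher and 0 lower (11 and 0 at an unadjusted p under 0.05 in limma). The 15 measured had a summed signal of 2753 to 3513 in untreated and 24451 to 24865 in NICD arrays. Of 7 tested neuronal genes 3 rose and 1 fell, and the summed signal of the 16 measured was 6726 to 8097 against 6608 to 7634. That sum is carried by syt1.L, which fell, and the other 15 summed to 1905 to 2871 against 4022 to 4505. Much of that difference lay in prph.L, with means of 268 in untreated and 1050 in NICD arrays, and prph.S, with 23 and 717. These and gap43.L, with 297 and 506, were the genes that rose. The sum therefore does not stand for the neuronal genes as a set. Of the 16 neuronal genes 9 were not tested, among them elavl3.L, elavl4.L, ncam1.L and ncam1.S, which were below the filter in all arrays. Epidermal genes fell in 9 of 11 (summed signal 49781 to 68506 against 8632 to 18654). Much of that sum lay in krt12.4.L, with means of 18100 in untreated and 3920 in NICD arrays, and krt12.4.S, with 18100 and 2600. Tp63.L and tfap2a.L did not pass, with log2 changes of -0.34 and -0.41. All 8 tested multiciliated cell genes fell (9530 to 12341 against 1131 to 1610). Zic1.S, zic2.L and prph.S were above the filter in the NICD arrays alone, and cfap52.S, spag6.L, tekt2.L and tekt2.S in untreated arrays alone. Their passing the filter thus depended on the group in which they were high. With no filter 10 neural progenitor genes rose, 2 neuronal genes rose and 1 fell, and 9 epidermal and 8 multiciliated cell genes fell. Over all 15491 probe sets 10.2% rose and 10.6% fell. Of 4 mesoderm and muscle genes tested 1 rose and 2 fell, with sums over the 6 measured of 1489 to 1987 and 1281 to 1375. Tbxt.S rose from a mean of 101 to 603, while ckm.L fell from 893 to 248 and tnni2.S from 435 to 149. This sum mixes opposite changes and does not stand for the list as a set either. None of the 5 neural crest probe sets (sum 141 to 214 against 116 to 165) and of the 2 endothelial ones (52 to 94 against 104 to 192) was high enough to be tested. With no filter 1 mesoderm and muscle gene rose and 2 fell, 1 neural crest gene fell and no endothelial gene passed. The crest gene was snai2.L, with 46.6 to 91.4 in untreated and 17.2 and 10.9 in NICD arrays (adjusted p = 0.0203 in limma), all below the filter. The tissue was checked against an epidermal marker, the keratin krt12.4.L, which had 13505.1 to 22126.0 in the untreated arrays.

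**Figure D4:**
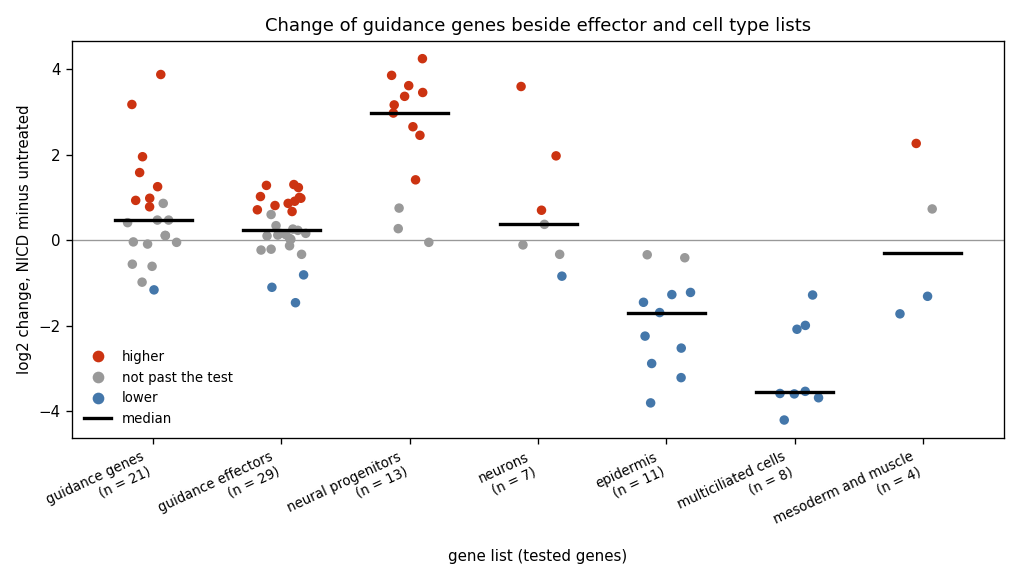
Log2 change of signal + 32 (y axis, NICD minus untreated) of each tested gene of the guidance genes, the effector list and the cell type lists (x axis), red for higher, blue for lower and grey for not past the test, with the median as a line. The guidance genes spread on both sides of 0 with a median of 0.47, between the neural progenitor genes (2.97) and the epidermal genes (-1.69).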

How the data were processed

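Each sample was hybridised to 1 array. The deposited signal intensities are linear MAS5 values, per the submitters' processing notes, and no source used here gives the MAS5 version. The day, which is that of the scan date, and the fluidics module came from the deposited experiment settings, which are other values (text), per the file headers. Of 15611 probe sets 120 controls were left out. Of the 15491 others, 9304 had 1 gene symbol, 195 several (not named) and 5992 none. Guidance genes were matched by platform symbol, and other lists after updating symbols for 9227 probe sets through a RefSeq table (assembly Xenopus_laevis_v10.1).

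Log2(signal + 32) values of the 10368 probe sets above the 40th percentile of their array in at least 2 arrays were fitted with limma 3.58.1 in R 4.3.3 (eBayes with a trend, 2-sided test), with treatment as the one term. Benjamini-Hochberg adjustment ran over all of them and 0.05 was the threshold. Every guidance gene past the test is named, and up to 5 effectors per direction. Members, lists and rules were chosen with earlier results of these data known. Alternatives were other normalizations, pseudocounts, filters, blocks, probe sets and the leaving out of each array. Plots used matplotlib 3.10.9. No sequence is printed, since none was used here.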

Additional observations from a re-analysis of the deposited data

Results flagged for a closer look

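In 3 of the 34 guidance genes, 1 untreated array stood apart from the other three (by Dixon's criterion for a gap relative to the range), and it was untreated 4 each time. The signal of robo1.L was 59.8 in untreated 4 and 3.1 to 4.6 in the others. That of robo3.S was 88.3 against 33.3 to 41.0, and that of slit2.S 172.1 against 25.8 to 44.8. The second robo3.S probe set did not show this, with 31.8 in untreated 4 and 39.0, 25.6 and 19.9 in untreated 1 to 3. All 3 genes belong to the slit and robo families, and none passed the filter. Chance alone marks about 1 in 20 genes, or 1.70 of the 34, where values are normally distributed. Low signals on a linear scale need not be, and the share over all probe sets is not given here.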

How the results depend on the processing

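Over the 17 alternatives the count of higher guidance genes ran from 6 to 9 (main value 8 of 21, beside 15.3% of all tested probe sets). The number tested and the share over all probe sets changed too. The count was 6 of 21 without untreated 4 (13.0% of all) and 9 of 21 with the day as a block (20.4%). It was 8 of 34 with no filter (10.2%). With the 60th percentile it was 7 of 13, where 2610 of 7233 probe sets were called in either direction. Epha2.L, epha4.L, plxnb2.S, rgma.L and rnd1.S passed in every alternative in which they were tested (epha4.L was not with the filter at the 60th percentile or with probe sets averaged). Where arrays were left out, the filter set on all 6 arrays was kept. Epha4.L was above it in the 2 NICD arrays alone, so its tests without either of them rest on a filter that used the array left out. The count of lower genes was 1 of 21 (16.2% of all tested probe sets) and was 2 with the day as a block (19.8%). It was 2 without the trend and 0 to 2 with each untreated array left out. With the filter at the 60th percentile it was 0, and sema6d.L was not tested there. The median log2 change of 0.47 was 0.44 with median centring, 0.52 and 0.34 with pseudocounts of 1 and 80, 0.23 with no filter, 0.86 with the 60th percentile, 0.44 with probe sets averaged and 0.29 to 0.51 with each array left out. Probe sets called over the table, 3275, numbered 1683 to 3108 with each array left out. The labels do not say that replicate numbers pair samples, and deviations of same-numbered arrays correlated at 0.20 (number 1) and -0.23 (number 2). With 2 NICD arrays the deviations of NICD 1 mirror those of NICD 2, so these values are not separate checks. Their signs went with the scan day. Untreated 1 and 2 correlated at 0.20 and 0.23 with NICD 1 of day 1, and untreated 3 and 4 at 0.12 and 0.28 with NICD 2 of day 2. With the replicate block on 4 arrays 7 of 21 were higher and 2 lower, with a median of 0.27. In that setting 3036 of the 10368 probe sets were called in either direction. It sets untreated 2 of day 1 beside NICD 2 of day 2, so replicate number and day are mixed in its calls. Efna4.L, plxna1.L and sema6d.L lost their calls (adjusted p in limma 0.09, 0.0855 and 0.0968), and rnd1.L, slit1.S and ephb3.S gained calls (0.016, 0.0133 and 0.045). Effectors called higher ranged from 2 to 12 and lower from 0 to 4. On probe sets without a shared-probe suffix vav2.S had -0.08. Of 478 gene values over the alternatives 32 lost and 10 gained a call and 1 reversed; efnb2.S, neo1.L, sema3fl.S and unc5b.L, past the test in none, changed sign in some. The cause was not tested. Without 1 NICD array, the other was assumed to vary like the untreated ones. Signals below the filter left 13 of the 34 genes untested.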
